A study of Rattus norvegicus with 84 samples.

Results

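CA1, the output field of the hippocampus proper, was compared between 12-month-old (middle-aged) and 5-month-old (young) male rats of the inbred strain F344. The comparison used every CA1 library of the series, 28 of 84 libraries in all, and the age stated in the labels put 12 in the 5-month and 16 in the 12-month group. Each library came from 1 rat, as polyA RNA of CA1 dissected from a single hemisphere. The same rats gave libraries of CA3 and of the dentate gyrus (DG). No treatment or genotype is given, so age is the only difference between the groups that the labels state. By their numbers, the animals form 2 runs: 6 young and 10 middle-aged rats in one, called the first here, and 6 rats of either age in the second. The labels do not call these runs batches. Each result was therefore also read within each run.

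CA1 pyramidal neurons receive the Schaffer collaterals of CA3 and direct input from the entorhinal cortex, and send the output of the hippocampus to the subiculum and cortex. Their synapses are a standard site for the study of NMDA receptor dependent plasticity, and ageing of CA1 is known for altered calcium handling, a larger after-hyperpolarisation and glial activation. A dissected CA1 block also holds interneurons, astrocytes, oligodendrocyte lineage cells, microglia and vessels. In such tissue, fewer cells of a type and less RNA per cell cannot be told apart.

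Reads per CA1 library ranged from 14.4 to 23.4 M, with a median of 18.5 M at 5 months and 16.1 M at 12 months. Replicates are numbered in accession order, and 5-month replicate 6 and 12-month replicates 2 and 10 lay farthest from their group's medians over all genes. Immune genes set 12-month replicate 10 apart, and many of them are given with and without it. The median normalized count of Wfs1, a marker of CA1 pyramidal cells, was 26390 in CA1 against 4844 in CA3 and 3320 in the DG. Pou3f1, a transcription factor of the same cells, had medians of 2319, 437 and 334. Both were highest in CA1 in 28 of 28 rats, and the median was highest in CA1 for 9 of 9 markers, which are described without a test because each subregion's table was normalized on its own. Markers of neighbouring fields overlapped between the ages: the summed level of 6 dentate granule cell markers ranged from 496 to 4243 (median 1572) at 5 months and from 305 to 6634 (median 2321) at 12 months. None of these 6 was called by limma, edgeR or DESeq2 and none had an unadjusted p under 0.05. Of 8 CA3 markers only Nnat was called, and their sum ranged from 5971 to 8687 and from 4505 to 9859. Choroid plexus markers summed to between 54.6 and 1809 at 5 months and between 35.3 and 554 at 12 months. Of 6 subiculum and thalamus markers 2 were lower, Calb2 (log2 change -0.48, limma adjusted p = 0.00311) and Rora (-0.41, 0.0309), 33.3% called against 25.2% over all genes. Their sum ranged from 2930 to 3853 and from 2402 to 3957. Of 3 blood cell markers limma called Hbb higher (0.46, adjusted p = 0.0464), and edgeR and DESeq2 called 0.

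The share of a library taken by the 13 mitochondrially encoded genes moved with age, and differently in the 2 runs. In the first run it ranged from 8.20 to 13.6% (median 10.5) at 5 months and from 8.31 to 15% (median 10.8) at 12 months. In the second run it ranged from 5.22 to 7.72% (median 6.62) at 5 months and from 11.1 to 13.2% (median 12.8) at 12 months. The ages overlapped in the first run and did not overlap in the second. In the second run the mitochondrial share and age therefore cannot be told apart, and the counts from a fit with the share as a term are given beside most of the gene groups that follow.

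**Figure D1:**
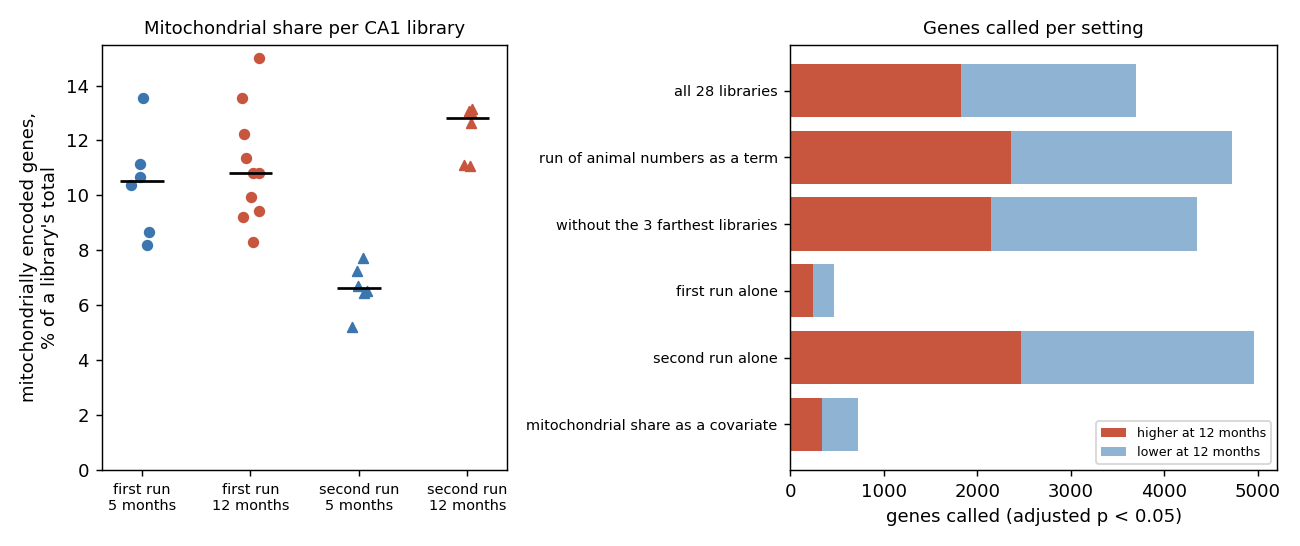
Left, mitochondrially encoded genes as a percentage of each CA1 library's total, by run and age (points are libraries, bars are medians). Right, number of genes called higher and lower at 12 months with all 28 libraries and under 5 other settings. The second run's 12-month libraries, at 11.1 to 13.2%, all lie above its 5-month libraries, at 5.22 to 7.72%. The fit with this share as a term called 727 genes against 3700.

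Of 14685 genes tested, 3700 (25.2%) differed between the ages, 1827 higher (12.4%) and 1873 lower (12.8%) at 12 months (limma on log2 of the normalized count plus 1, Benjamini-Hochberg adjusted p under 0.05). Rescaling each library to its total without the mitochondrially encoded genes gave another split, 3011 higher and 1090 lower. Most changes were small: the median size among called genes was 0.30 on the log2 scale, 237 reached 1.5-fold (162 higher, 75 lower) and 37 reached 2-fold (20 higher, 17 lower). Fitted alone, the first run called 468 genes (3.19%) and the second 4958 (33.8%). In 1671 genes (11.4% of those tested, 45.2% of those called) the change had an unadjusted p under 0.05 in the same direction in each run, 813 higher and 858 lower. Called after adjustment in both runs were 236 genes in the same direction and 8 in opposite directions. With the mitochondrial share as a term, 727 genes were called, 343 higher and 384 lower, and without the 3 farthest libraries 4345 were called.

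**Figure D2:**
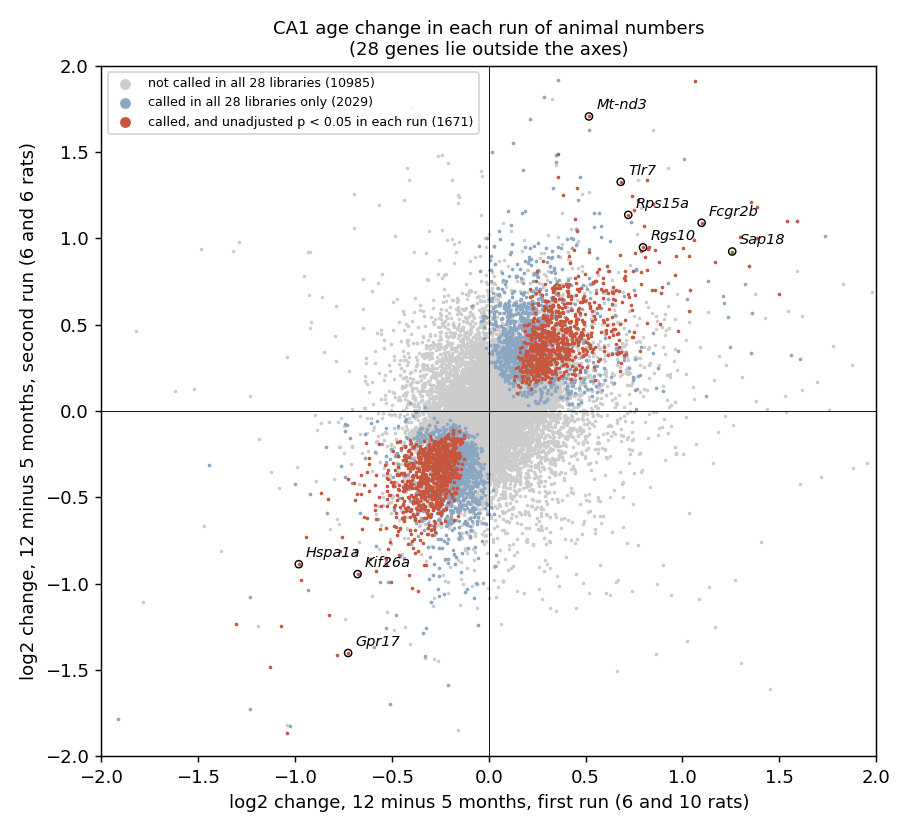
Log2 change from 5 to 12 months in the first run (horizontal, 6 and 10 rats) against the second (vertical, 6 and 6 rats), 1 point per tested gene, with 28 genes outside the axes. Red points are the 1671 genes called in all libraries with an unadjusted p under 0.05 in each run, which lie in the upper right and lower left by that rule.

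Among genes that changed in each run, the largest rises included immune receptor genes and the largest falls a gene of oligodendrocyte precursors. Fcgr2b, the inhibitory Fc receptor, ranged from 58.0 to 125 normalized counts (median 86.4) at 5 months and from 107 to 989 (median 174) at 12 months. It rose 2.14-fold (log2 1.10 ± 0.20 SE, 12 and 16 rats, limma adjusted p = 0.000694), and 16 of 16 middle-aged rats lay above the young median. Rgs10, a regulator of G protein signalling known from microglia, rose by 0.82 ± 0.15 on the log2 scale, from 242 to 572 (median 363) to between 377 and 1440 (median 659). Sap18, a subunit of Sin3 and splicing complexes, had medians of 78.5 and 184, a log2 change of 1.02 ± 0.22. Tlr7 and Tlr13, endosomal receptors for RNA, rose by 0.96 ± 0.21 and 0.99 ± 0.19. These genes are in the red upper right of the plot of the 2 runs.

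Gpr17, a receptor of oligodendrocyte precursors about to mature, fell from between 172 and 340 normalized counts (median 261) to between 74.1 and 183 (median 121). Its log2 change was -1.01 ± 0.12 (limma adjusted p = 1.43e-05), with -0.73 in the first run against -1.40 in the second, and the 2 age groups met only at their edges. Kif26a, an atypical kinesin, had a young range of 308 to 478 (median 386) and a middle-aged range of 148 to 326 (median 233), a log2 change of -0.79 ± 0.10. Hspa1a, the inducible HSP70 gene, had medians of 500.6 and 252 and a log2 change of -0.89 ± 0.20. Col1a1, a fibrillar collagen gene, changed by -0.73 ± 0.13 and Ier5l, a relative of an immediate early gene, by -0.75 ± 0.15. Calcoco1, an autophagy receptor gene, changed by -2.41 ± 0.46, but its libraries were widely spread within each age, from 29.3 to 973 (median 583) at 5 months and from 15.9 to 318 (median 55.1) at 12 months. Of these 11 genes, Fcgr2b, Rgs10, Sap18, Tlr13, Gpr17, Kif26a and Col1a1 also passed with the mitochondrial share as a term.

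**Figure D3:**
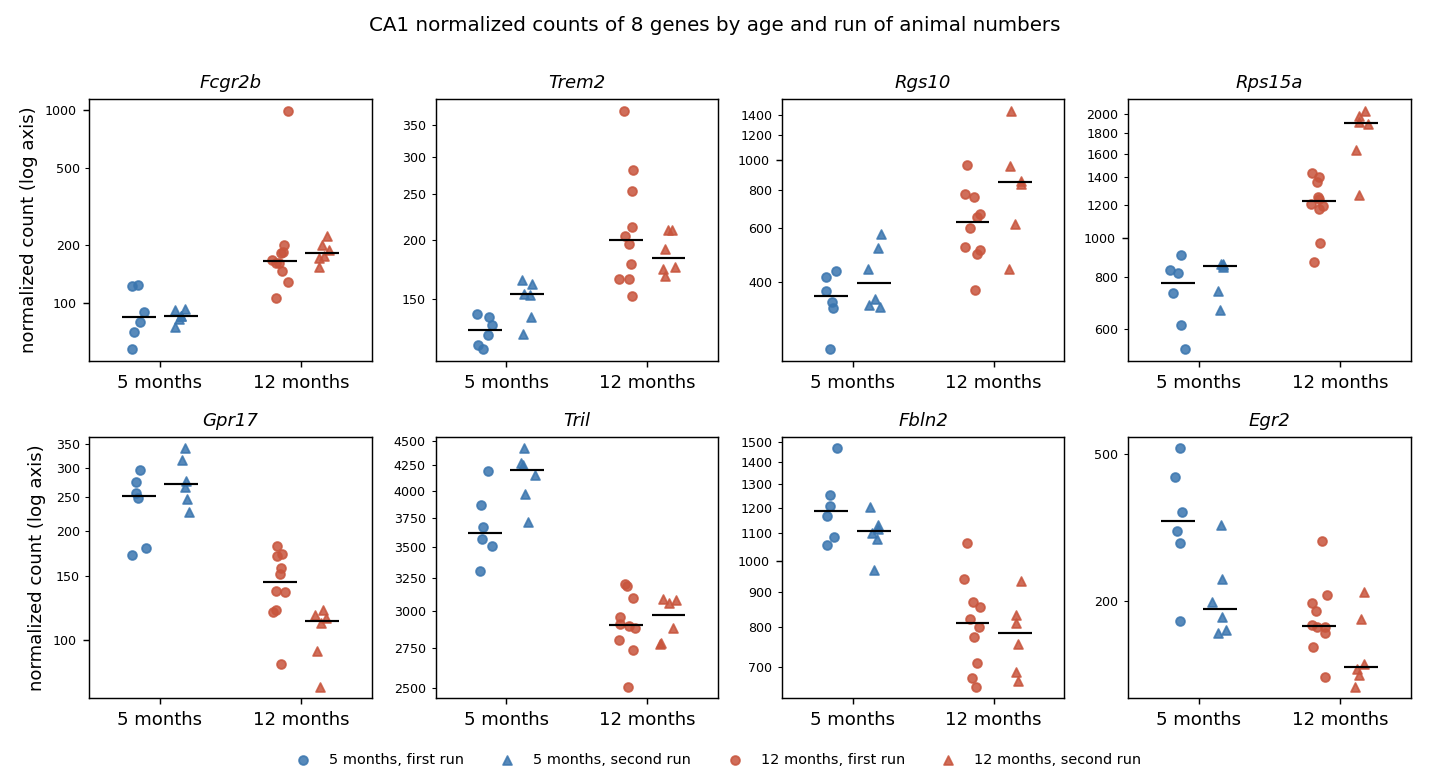
Normalized counts of 8 genes in each of the 28 CA1 libraries on log axes, by age and run of animal numbers (circles first run, triangles second run, bars medians). In the Tril panel the 5-month libraries (3304 to 4424) all lie above the 12-month libraries (2506 to 3200). In the Fcgr2b panel 1 middle-aged library stands at 989.

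Of the genes induced by neuronal activity, most of them transcription factors, 10 of 19 fell. These immediate early genes are switched on within minutes of synaptic input and serve as a readout of recent firing. None of the 19 rose. The share called was 52.6%, against 25.2% over all genes (12.8% lower). The list had a median log2 change of -0.34 against 0.0038 over all tested genes, and 6 of the 10 also had an unadjusted p under 0.05 in each run. Over all called genes, 45.2% had such a p in the same direction in each run. Egr2 ranged from 163 to 517 normalized counts (median 258) at 5 months and from 117 to 290 (median 170) at 12 months, a log2 change of -0.64 ± 0.16 (limma adjusted p = 0.00595). Egr4 had medians of 788 and 539 (log2 change -0.50 ± 0.11), and Fosl2, a Fos-family partner in AP-1, of 119 and 76.8 (-0.62 ± 0.16). Nr4a3, an orphan nuclear receptor, changed by -0.36 ± 0.07. In each of these 4 genes at least 15 of 16 middle-aged rats lay below the young median, and the age groups overlapped. With the mitochondrial share as a term 4 members were called, all lower, among them Egr2, Egr4 and Fosl2. Arc, Jun and Npas4 did not pass, at -0.27 (adjusted p = 0.185), -0.23 (0.114) and 0.0044 (0.994).

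Well-known elements of activity-induced promoters are the CRE, bound by CREB, and the CArG box, bound by serum response factor. RefSeq windows of the 250 bases before the start (build GRCr8) were found for 14 of the 19 genes and searched on both strands for the CRE TGACGTCA and for the CArG box; both motifs read the same on either strand, and no 2 matches overlapped. The CRE was present in 4 of the 14 and the CArG box in 2 of the 14, and the remaining 8 windows held neither in full. Only the full TGACGTCA was counted as a CRE, and shorter forms of it were not searched. No window was found for Fos, Jun, Egr3, Nr4a3 and Arc. Among the 9649 windows of tested genes the shares were 2.85% for the CRE and 1.09% for the CArG box. Among all 24206 windows they were 1.72% and 1.51%. Both windows with a CArG box belong to members that were lower at 12 months, Egr1 and Egr2. Of the 4 windows with a CRE, 1 belongs to a member that was lower, Jund, and 3 to members that were not called. A match describes letters only. The stretches with a match are shown 5′ to 3′ with the matched element in capitals, so that the elements of members that fell can be set beside those of members that did not.
Egr1 (chr18:26736958-26737019, plus strand): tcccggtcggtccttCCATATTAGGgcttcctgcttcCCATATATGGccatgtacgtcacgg
Egr2 (chr20:21054500-21054539, minus strand): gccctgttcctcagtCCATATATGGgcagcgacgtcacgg
Jund (chr16:18769970-18770007, minus strand): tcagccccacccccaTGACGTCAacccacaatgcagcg
Ier2 (chr19:40399292-40399329, plus strand): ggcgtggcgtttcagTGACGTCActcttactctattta
Dusp1 (chr10:17184714-17184751, plus strand): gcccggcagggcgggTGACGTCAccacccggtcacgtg
Btg2 (chr13:48087869-48087906, minus strand): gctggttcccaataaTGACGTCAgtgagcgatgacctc
Egr1, chosen for its promoter after its values were seen, had a mean of 4455 ± 1191 (SD, n = 12) at 5 months and 3378 ± 693 (n = 16) at 12 months, a log2 change of -0.38 ± 0.11 (limma adjusted p = 0.0173), with -0.64 in the first run against -0.14 in the second. Jund changed by -0.22 ± 0.08 (adjusted p = 0.0421), and its call was lost in 15 of the 28 fits that leave out 1 rat, without 5-month replicate 1, 2, 6, 7 or 8 or 12-month replicate 3, 4, 6, 7, 8, 10, 12, 14, 15 or 16 (highest adjusted p = 0.0781). Ier2, Dusp1 and Btg2 did not pass, at -0.36 ± 0.14 (adjusted p = 0.0624), 0.10 ± 0.14 (0.605) and -0.09 ± 0.14 (0.672).

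At the excitatory synapse, genes of the postsynaptic scaffold and the NMDA receptor were among those called lower. Of 17 scaffold genes 9 were lower and 0 higher (median log2 change -0.27), and 8 of the 9 had an unadjusted p under 0.05 in each run. The share called was 52.9%, against 25.2% over all genes (12.8% lower). Nlgn2, an adhesion protein of inhibitory synapses placed in this list, ranged from 3697 to 5940 (median 4741) at 5 months and from 2367 to 4629 (median 3500) at 12 months, a log2 change of -0.41 ± 0.09 (limma adjusted p = 0.00185). Dlgap3 and Dlgap1, which link PSD-95 to Shank proteins, changed by -0.48 ± 0.11 and -0.27 ± 0.06, and Nlgn3 by -0.31 ± 0.08. Among 6 NMDA receptor subunits 4 were lower and 0 higher (66.7% called). Grin1, the obligatory subunit, had medians of 14600 and 12480 (log2 change -0.22 ± 0.06), Grin2b of 2438 and 1857 (-0.43 ± 0.11), and Grin2d of 245 and 160 (-0.58 ± 0.14). In the second run Grin2d fell by 1.03 on the log2 scale, and its first-run value was -0.26. Of 16 genes of AMPA receptors and their auxiliary proteins 2 were higher (Gria2 and Gria3) and 3 lower (Gria1, Cacng4 and Cnih2), 31.25% called against 25.2% over all genes. The 5 calls became 3 without 5-month replicate 1, 2, 8 or 10 or 12-month replicate 9, 10, 12, 15 or 16. Of 10 metabotropic glutamate receptors limma and edgeR called 0 and DESeq2 2, and 3 had an unadjusted p under 0.05. With limma 1 or 2 were called without 5-month replicate 4, 5, 6 or 7 or 12-month replicate 2, 6, 7, 8 or 15. None of the 17 scaffold genes and none of the 6 NMDA subunits passed with the mitochondrial share as a term.

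Some calcium, SK and HCN channel genes also fell, and some GABA-A receptor genes rose. Of 15 voltage-gated calcium channel genes 5 were lower and 0 higher (33.3% called, against 25.2% over all genes, 12.8% lower). Cacna1g, a T-type channel, had medians of 2239 and 1758 (log2 change -0.41 ± 0.10, limma adjusted p = 0.00543) and Cacna1i of 2847 and 2071 (-0.39 ± 0.11). Of 12 genes of after-hyperpolarisation and HCN channels 4 were lower and 0 higher (33.3% called). Hcn4, a pacemaker channel, ranged from 80.3 to 122 (median 95.9) at 5 months and from 27.6 to 94.8 (median 58.4) at 12 months (log2 change -0.73 ± 0.14), and Kcnn3, a calcium-activated SK channel, changed by -0.47 ± 0.12. Calb1, a calcium buffer of pyramidal cells and granule cells, rose by 0.43 ± 0.11 (medians 583 and 799), and Calb2, a calcium buffer of a class of interneurons, changed by -0.48 ± 0.11 (medians 185 and 131). Calb2 is also in the list of subiculum and thalamus markers. Of 13 GABA-A receptor and gephyrin genes 3 were higher and 0 lower (23.1% called, against 25.2% over all genes, 12.4% higher). Without 12-month replicate 13 the number was 5. Gabra4 rose by 0.32 ± 0.09 and Gabra5, the subunit of extrasynaptic receptors that CA1 expresses strongly, by 0.30 ± 0.08. Calb2, Hcn4 and Gabra4 also passed with the mitochondrial share as a term, but no calcium channel gene did.

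Igf1r, the receptor for insulin-like growth factor 1, was lower, with a young range of 357 to 552 (median 450) and a middle-aged range of 268 to 451 (median 332). Its log2 change was -0.42 ± 0.09 (limma adjusted p = 0.00185), with -0.50 and -0.41 in the 2 runs. Irs1 and Irs2, which relay the signal of this receptor, changed by -0.41 ± 0.12 and -0.29 ± 0.07, and Vgf, a neuropeptide precursor induced by neurotrophins, by -0.35 ± 0.08. Of 15 tested genes of neurotrophin and insulin-like growth factor signalling these 4 were lower and 0 were higher (26.7% called, against 25.2% over all genes, 12.8% lower). Rab3a, a vesicle GTPase, changed by -0.25 ± 0.05, from between 13330 and 17360 (median 14330) to between 10730 and 14790 (median 12240). Igf1r and Rab3a passed with the mitochondrial share as a term.

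Among genes of axon growth, tubulins and motor proteins, more were called lower than higher. The shares called were 55.6%, 42.9% and 46.2%, against 25.2% over all genes (12.8% lower). Of 18 genes of immature neurons and axon growth 9 were lower and 1 was higher, Dcx, whose call was lost without 5-month replicate 1, 2 or 6 (highest limma adjusted p = 0.0573). Dpysl3, a collapsin response mediator, ranged from 221 to 401 (median 321) at 5 months and from 133 to 260 (median 204) at 12 months, a log2 change of -0.67 ± 0.10 (limma adjusted p = 0.000138). Elavl3, a neuronal RNA-binding protein gene, changed by -0.27 ± 0.05. Of 14 tubulin genes 6 were lower and 0 higher, with Tubb2b at -0.34 ± 0.07 (medians 3700 and 3015) and Tubb5 at -0.26 ± 0.05. Of 26 kinesin and dynein genes 10 were lower and 2 higher. Kif21b, a kinesin of dendrites, changed by -0.45 ± 0.10, and Dynll1, a dynein light chain, rose by 0.29 ± 0.05, from between 3451 and 4545 (median 4033) to between 4156 and 5734 (median 4983). In each of these 6 genes at least 15 of 16 middle-aged rats lay beyond the young median. Dpysl3, Elavl3, Tubb2b, Tubb5, Kif26a and Dynll1 passed with the mitochondrial share as a term.

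Enzymes that modify histones and DNA were lower more often than higher, 14 against 2 of 35 tested, and 10 of the 14 had an unadjusted p under 0.05 in each run. The share called was 45.7%, against 25.2% over all genes (12.8% lower). Setd1b, a histone methyltransferase, had medians of 952 and 689 (log2 change -0.43 ± 0.09, limma adjusted p = 0.00185), Hdac4, a class IIa deacetylase, of 846 and 663 (-0.35 ± 0.08), and Crebbp, the acetyltransferase CBP, of 1213 and 1060 (-0.32 ± 0.08). Splicing factors went the other way in the main, with 13 of 35 higher and 4 lower (48.6% called, against 12.4% higher over all genes and 25.2% called). Srsf6 and Srsf11 rose by 0.29 ± 0.06 and 0.25 ± 0.06, whereas the neuronal regulators Nova2 and Rbfox3 changed by -0.43 ± 0.09 and -0.40 ± 0.10. With the mitochondrial share as a term 2 chromatin genes were lower, Crebbp among them, and 1 splicing factor was higher.

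Part of the microglial and immune genes rose. Of 15 homeostatic microglia markers 5 were higher, of 19 activated microglia and lysosome-linked genes 5, of 15 Fc and Toll-like receptor genes 6, and of 24 interferon-induced genes 6. The shares called in either direction were 33.3%, 26.3%, 46.7% and 25%, against 25.2% over all genes (12.4% higher). Those of the activated and interferon-induced lists were thus near the share over all genes. The first 2 lists and the interferon list held 0 lower members, and the receptor list held 1, Tril. Of 15 MHC class I and peptide loading genes 1 was higher, B2m (6.67% called, list median 0.07). Of 16 complement components 4 were higher (25% called), or 2 without 5-month replicate 2 or 8. The class I count was 0 without 5-month replicate 1, and 2 or 3 without 5-month replicate 6, 9 or 10 or 12-month replicate 1, 3, 4, 5, 6 or 7. Trem2, a lipid-sensing receptor of microglia, ranged from 118 to 165 (median 138) at 5 months and from 153 to 374 (median 194) at 12 months, a log2 change of 0.54 ± 0.10 (limma adjusted p = 0.000997), with 0.71 in the first run against 0.33 in the second. Ctss, the protease cathepsin S, had medians of 1490 and 2165 (0.59 ± 0.12). Lamp2, a lysosomal membrane protein gene, rose by 0.48 ± 0.09. The interferon-induced Ifi44 rose by 0.60 ± 0.15 and Eif2ak2, the RNA-sensing kinase PKR, by 0.33 ± 0.09. Trem2, Ctss and Lamp2 passed with the mitochondrial share as a term, and the interferon-induced list then held 0 called members.

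A single middle-aged library, 12-month replicate 10, stood far above the others for these genes. It was the highest 12-month library for 22 of 25 immune, lysosomal and related genes looked up, which were chosen after their values were seen. For Cd74, the invariant chain of MHC class II, it held 31730 normalized counts against 723 in the next library, and for the class II gene RT1-Da it held 10540 against 205. The same rat was also the highest middle-aged rat in its other subregions, with Cd74 at 25190 in CA3 (highest other 2989) and 3266 in the DG (highest other 799). Cd68, a lysosomal protein of phagocytes, was at 810 in this library and at 43.4 in the next, and its log2 change was 1.14 ± 0.36 with this library and 0.84 without it. Leaving it out, Fcgr2b changed by 0.94, Ctss by 0.48 and Trem2 by 0.48, and each stayed past the threshold (limma adjusted p = 6.34e-06, 7.42e-06 and 0.000887). Tlr7, Tlr13, Ifi44, Eif2ak2 and Lamp2 then changed by 0.83, 0.86, 0.51, 0.28 and 0.44 and stayed past it too. Without this library 6 homeostatic and 5 activated microglia genes, 6 receptor, 5 interferon-induced and 3 complement genes were higher. In the activated and the receptor list 1 gene each was then lower.

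The class II genes were not called with all 28 libraries, although their median log2 change was 1.28. Of 7 tested, limma called 0, 5 had an unadjusted p under 0.05, and on recovered reads edgeR called 5 and DESeq2 called 4. Without 12-month replicate 10, limma called 4, all higher, with a list median of 0.79. In all 28 libraries RT1-Da ranged from 6.69 to 40.8 (median 18.0) at 5 months and from 18.4 to 10540 (median 34.2) at 12 months, and Cd74 from 68.5 to 166 (median 91.5) and from 91.2 to 31730 (median 152). At 12 months 16 of 16 rats lay above the young median for RT1-Da and 15 of 16 for Cd74. RT1-DMb, whose product loads peptides onto class II molecules, had medians of 181 and 166 (log2 change -0.03, adjusted p = 0.919). With the mitochondrial share as a term, limma called 0 of the 7.

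A minority of the astrocyte and oligodendrocyte precursor genes were lower. Tril, an accessory protein of Toll-like receptors known from astrocytes, was the only gene named here whose age groups did not overlap, at 3304 to 4424 normalized counts (median 3921) and 2506 to 3200 (median 2904). Its log2 change was -0.41 ± 0.05 (limma adjusted p = 5.88e-06), with -0.34 and -0.49 in the 2 runs. The named genes were mostly picked by p or size of change, and overlap was not counted over all tested genes. Of 18 astrocyte markers 6 were lower and 0 higher (33.3% called, against 25.2% over all genes, 12.8% lower). Sox9, the astrocytic transcription factor, ranged from 571 to 898 (median 724) and from 295 to 816 (median 455), a log2 change of -0.65 ± 0.11. Gli3, an effector of hedgehog signalling, changed by -0.49 ± 0.10, and Slc1a2 and Aldoc by -0.33 and -0.27. The other 12 did not pass, among them Gfap (-0.07, limma adjusted p = 0.679), Aqp4 (0.15, 0.262), Slc1a3 (0.04, 0.493) and S100b (-0.02, 0.910). Osmr, the oncostatin M receptor and a gene of reactive astrocytes, rose by 0.83 ± 0.17 from a median of 12.5 to 25.2. Of the 11 reactive astrocyte genes 3 were higher (Osmr, Aspg and C3) and 1 was lower (S1pr3), 36.4% called. The 4 calls became 1 or 2 without 5-month replicate 2, 4, 8, 9, 10 or 12 or 12-month replicate 2, 8, 13 or 14. Of 16 genes of oligodendrocyte precursors and differentiating cells 4 were lower and 0 higher (25% called, against 25.2% over all genes, 12.8% lower). Beside Gpr17, Cspg4, the NG2 proteoglycan, was at -0.37 ± 0.07 (medians 1180 and 870) and Olig1 at -0.27 ± 0.09. Tril, Sox9, Gli3, Osmr and Gpr17 passed with the mitochondrial share as a term, and Cspg4 and Olig1 did not.

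Some genes of the basement membrane and the perineuronal net were lower too. Few vessel genes passed: of 16 endothelial and blood-brain barrier genes 2 were lower (Slc7a5 and Slc16a1) and 1 was higher (Abcg2), and of 13 pericyte and smooth muscle genes 2 were lower (Notch3 and Cspg4), shares of 18.8% and 15.4% called against 25.2% over all genes. The endothelial count was 5 or 6 without 12-month replicate 2, 4 or 7, and the pericyte count 4 without 12-month replicate 7. Notch3, the receptor of vascular mural cells, had a young range of 510 to 840 (median 697) and a middle-aged range of 298 to 611 (median 448), a log2 change of -0.62 ± 0.09 (limma adjusted p = 8.45e-05). Of 30 collagen and basement membrane genes 8 were lower and 0 higher, 7 of them with an unadjusted p under 0.05 in each run. The share called was 26.7%, against 25.2% over all genes (12.8% lower). Of 8 markers of meningeal fibroblasts, cells that make fibrillar collagen, 2 were lower and 0 higher (25% called, against 25.2% over all genes), and the list's median was -0.27. The 2 were Col1a1, also a member of the collagen list, and Igf2 (log2 change -0.47 ± 0.11), both also lower with the mitochondrial share as a term. The other 6 did not pass, with log2 changes from -0.50 (Col1a2) to 0.07 (Dcn). The part of these cells in the change of the collagen group was not tested. Fbln2, a matrix glycoprotein, ranged from 971 to 1467 (median 1123) and from 654 to 1066 (median 806), a log2 change of -0.53 ± 0.07, with -0.57 and -0.50 in the 2 runs. Serpinh1, the collagen chaperone, changed by -0.40 ± 0.07 and Nid2, a basement membrane linker, by -0.56 ± 0.11. In this list 7 members were lower and 1 was higher with the mitochondrial share as a term.

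The perineuronal net is a proteoglycan coat around certain neurons, and 8 of its 19 tested genes were lower and 0 higher. The share called was 42.1%, against 25.2% over all genes (12.8% lower). Chst2, a sulfotransferase, ranged from 2232 to 3069 (median 2547) and from 1649 to 2309 (median 1951), a log2 change of -0.44 ± 0.06 (limma adjusted p = 1.43e-05). Ncan, the proteoglycan neurocan, changed by -0.39 ± 0.07 and Tnc, the matrix protein tenascin C, by -0.43 ± 0.08. Slc7a5, an amino acid transporter of the blood-brain barrier, changed by -0.37 ± 0.06 (medians 2075 and 1682). Of the net genes, 5 were lower with the mitochondrial share as a term, among them Chst2, Ncan and Tnc, and Slc7a5 passed as well.

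Ribosomal protein genes rose, and mitochondrially encoded genes rose in the second run. Of 66 cytosolic ribosomal protein genes 27 were higher and 1 lower (Rpl6), and 14 had an unadjusted p under 0.05 in each run. The share called was 42.4%, against 25.2% over all genes (12.4% higher). Many of these genes have near-identical processed copies in the genome, so their counts are uncertain where reads could be split. Rps15a ranged from 535 to 905 (median 827) at 5 months and from 871 to 2029 (median 1317) at 12 months, a log2 change of 0.86 ± 0.11 (limma adjusted p = 1.46e-05), and 16 of 16 middle-aged rats lay above the young median. Rpl21 rose by 0.63 ± 0.11 (medians 1567 and 2288). Under the fit with the mitochondrial share, 5 ribosomal protein genes were higher, Rps15a and Rpl21 among them.

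Of the 13 mitochondrially encoded genes, which hold subunits of the respiratory chain, 11 were higher and 0 lower with all libraries (84.6% called, against 25.2% over all genes). The number higher was 0 in the first run alone and 12 in the second, and 1 with the mitochondrial share as a term. The share is made of these same 13 genes, so the fit with it cannot test their change. Their median log2 change was 0.05 for the first run against 1.0 for the second. Mt-nd2, a subunit of complex I, ranged from 39790 to 150100 (median 70830) and from 79750 to 216200 (median 127500), a log2 change of 0.79 ± 0.17 with 0.13 in the first run against 1.55 in the second (limma adjusted p = 0.00237 for the difference of the runs). Of 74 nuclear genes of respiratory complexes 15 were higher and 5 lower, a share of 27% called that is near the 25.2% over all genes. With the mitochondrial share as a term 3 were higher and 3 lower. Sdhc, a membrane subunit of complex II, had a young range of 1544 to 1847 (median 1740) and a middle-aged range of 1658 to 2188 (median 2050), a log2 change of 0.23 ± 0.05, while Ndufv1, the subunit of complex I that binds NADH, had medians of 3064 and 2695 (-0.21 ± 0.05).

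Protein turnover and stress genes were mixed. Of 28 HSP70, HSP90 and co-chaperone genes 3 were lower, Hspa1a, its partner Dnajb1 (log2 change -0.25 ± 0.06, medians 1758 and 1438) and Hsf1, the factor that induces them, and 2 were higher, Hspd1 and Dnajb4. The share called, 17.9%, was under the 25.2% over all genes. Hsf1 lost its call without 5-month replicate 1, 2, 3, 5 or 6 or 12-month replicate 3, 10, 12, 14, 15 or 16 (highest limma adjusted p = 0.0851). The number called in the list was 8 without 5-month replicate 4 or without 12-month replicate 13. Of 29 autophagy and mTOR genes 8 were lower and 4 higher (41.4% called, against 25.2% over all genes). Tfeb, a transcription factor of lysosomal genes, changed by -0.46 ± 0.11 (medians 337 and 242, limma adjusted p = 0.00409). Mvk, an enzyme of cholesterol synthesis, changed by -0.36 ± 0.08, and Cyp46a1, which turns cholesterol into a form that leaves the brain, by -0.34 ± 0.09, with 4 of 28 cholesterol genes lower and 0 higher, a share of 14.3% called that is under the 25.2% over all genes. Dnajb1, Tfeb and Mvk passed with the mitochondrial share as a term.

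Of the CA1 markers, 3 of 9 were lower and 0 higher (33.3% called, against 25.2% over all genes, 12.8% lower). Gpr161, a ciliary receptor that represses hedgehog signalling, ranged from 1432 to 2717 (median 2055) at 5 months and from 765 to 1897 (median 1321) at 12 months, a log2 change of -0.54 ± 0.11 (limma adjusted p = 0.00165). Wfs1 changed by -0.26 ± 0.09 (adjusted p = 0.0304), and Pou3f1, at -0.25 ± 0.11, did not pass (adjusted p = 0.0926). None of the 9 was called with the mitochondrial share as a term, where Gpr161 was at -0.38 (adjusted p = 0.0765). The call of Wfs1 was lost without 5-month replicate 1, 2, 8 or 11 or 12-month replicate 14 (adjusted p between 0.0510 and 0.0608). Fibcd1, at -0.34 ± 0.12 (adjusted p = 0.0369), lost its call without 5-month replicate 1, 2, 8, 10 or 11 or 12-month replicate 3, 9, 12, 14, 15 or 16 (adjusted p between 0.0520 and 0.0771). The list then held between 1 called member (without 5-month replicate 1, 2, 8 or 11 or 12-month replicate 14) and 5 (without 5-month replicate 7 or 12-month replicate 2 or 13). With no rat left out, the list's median log2 change was -0.24, set beside -0.43 (DG) and -0.15 (CA3) for the same markers elsewhere. The fall of these markers was therefore not seen in CA1 alone, and the difference between subregions was not tested for the list.

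**Figure D4:**
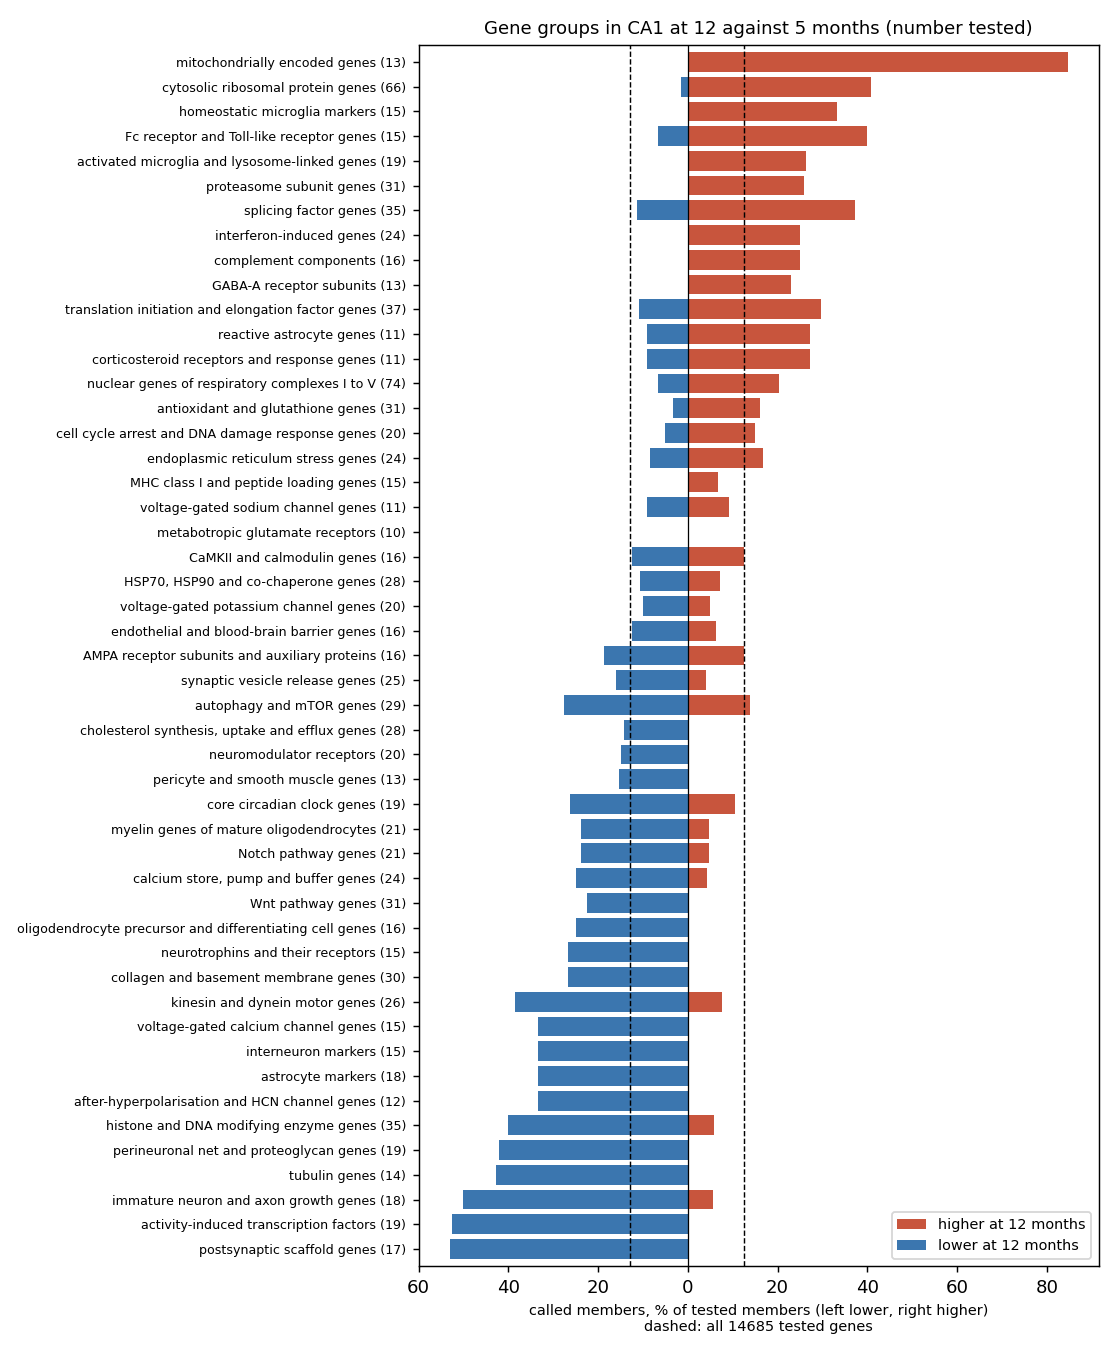
Share of tested members called higher (right, red) and lower (left, blue) at 12 months in gene lists with at least 10 tested members, whose number stands in brackets. Dashed lines mark the shares over all tested genes, 12.4% higher and 12.8% lower. The mitochondrially encoded and ribosomal protein genes lie at the top, and the postsynaptic scaffold and activity-induced factors at the bottom with 9 of 17 and 10 of 19 members lower.

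The age difference itself differed between the 2 runs in 476 genes (3.24%), with 299 more positive and 177 more negative in the second run (limma interaction). Of these, 119 were among the 3700 called in all libraries. Tsc22d3, a gene induced by glucocorticoids, had medians of 2274 and 1794 at 5 and 12 months in the first run and of 1466 and 2254 in the second, a difference of 0.94 ± 0.14 between the log2 changes. The complex I gene Mt-nd4 changed by 0.17 in the first run against 1.15 in the second, and Camk2n2, an inhibitor of CaMKII, by -0.03 and -1.0. Rats of the same age also differed between runs, in 2666 genes at 5 months and in 938 at 12 months. The mitochondrial share of the young libraries was lower in the second run, and its part in these differences was not tested.

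The age change in CA1 was then set against that of the other subregions within the same rats. Against CA3 no gene passed (0 of 14513, 0%), 1444 had an unadjusted p under 0.05, and the lowest adjusted p was 0.0617. With the run as a term 31 passed. Against the DG 87 of 14340 genes passed (0.607%), 30 with a more positive and 57 with a more negative change in CA1, and with the run as a term 264 passed. Igf1r fell in CA1, at -0.42 ± 0.09, and its change was 0.16 ± 0.08 in the DG and -0.03 ± 0.07 in CA3. The difference between CA1 and the DG was -0.58 ± 0.09 (limma adjusted p = 0.00375). Caln1, a calmodulin-like protein of neurons, changed by -0.38 ± 0.12 in CA1 and by 0.43 ± 0.10 in the DG, a difference of -0.81 ± 0.13. Setd7, a lysine methyltransferase, and Ccdc6 changed by -0.41 ± 0.09 and -0.45 ± 0.13 in CA1 and by 0.06 ± 0.08 and 0.24 ± 0.09 in the DG. Fosl2 differed as well (-0.62 ± 0.16 in CA1, 0.11 ± 0.12 in the DG, limma adjusted p = 0.0258), whereas Egr2 changed by -0.69 in the DG and its difference did not pass (adjusted p = 0.945).

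More positive in CA1 than in the DG were Svbp, the partner of the tubulin-detyrosinating vasohibins, Sdhc, and Tyw3, an enzyme of tRNA modification. Svbp rose in CA1 by 0.50 ± 0.12, from between 70.5 and 162 (median 120) to a median of 171 and a highest value of 243, and its change in the DG was -0.15 ± 0.12, a difference of 0.65 ± 0.13 (limma adjusted p = 0.0174). Sdhc rose by 0.23 ± 0.05 in CA1 and was at -0.11 ± 0.05 in the DG, and Tyw3 rose by 0.38 ± 0.07 and was at -0.03 ± 0.08. For these genes the CA3 change lay between -0.08 and 0.14, and the difference from CA3 was not past the threshold. A gene past the threshold in CA1 and not in CA3 is therefore not shown to change in CA1 alone.

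**Figure D5:**
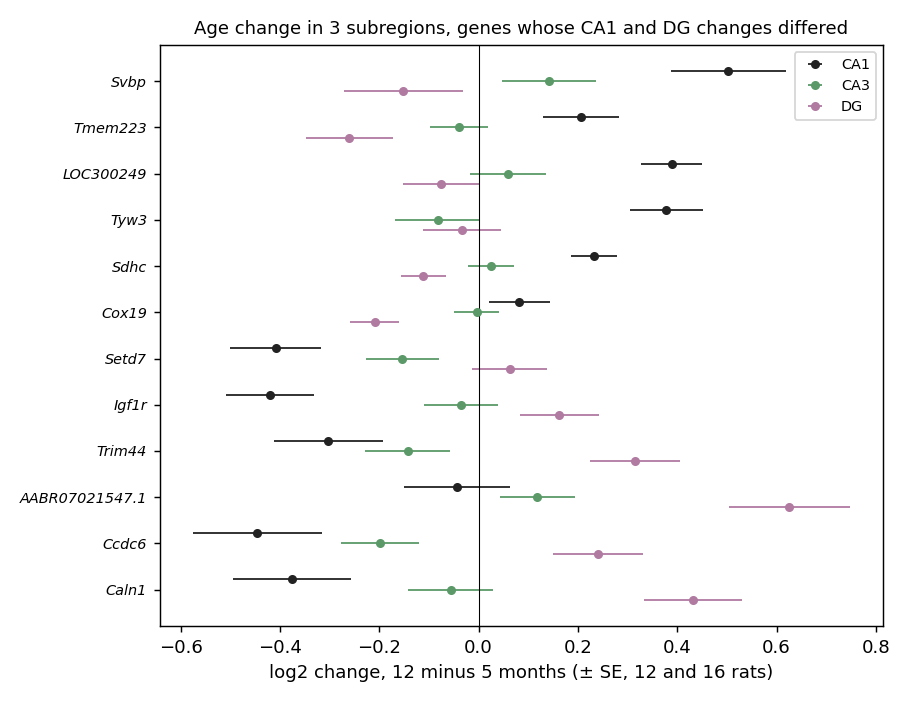
Log2 change from 5 to 12 months (± SE, 12 and 16 rats) in CA1, CA3 and the DG for 12 genes whose CA1 and DG changes differed, 6 in each direction. For Igf1r, Ccdc6, Setd7, Trim44 and Caln1 the CA1 point lies below 0 and the DG point above it.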

How the data were processed

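RNA of CA1, CA3 and the DG of 28 F344 rats was sequenced after polyA selection, RNase III fragmentation and library preparation for Ion sequencing, per the labels' protocols. Build rn6, the aligner STAR 2.5.3a, DESeq2 3.5 and Partek are named in the submitters' processing notes. The annotation and strand setting were not given in the sources used here. The authors deposited a signal per gene and library, called normalized counts in the text: for each subregion 100% of values up to 1000 reads lay within 0.1 read of whole multiples of 1 step per library. The values are therefore reads scaled by a single factor for each library, and dividing by the step gave back whole reads. On these, edgeR 4.0.16 (quasi-likelihood) called 3853 genes, 3584 of them also called by limma, and DESeq2 1.42.0 called 4221.

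The test was limma 3.58.1 in R 4.3.3 (trend, 2-sided, Benjamini-Hochberg over all genes tested, threshold 0.05) on log2(value + 1), with genes that reached 10 in 12 or more of the 28 CA1 libraries. Changes are on that scale and understate those of low genes. Values per run came from separate fits. Differences between subregions used log2 differences within rats, the titles giving each library's animal. Library pairs of CA1 differed by more than sampling noise. Rats are separate animals, and each p-value sets a difference against the spread between rats, which limma moderates over genes. In the main fit the run is not a term, so that spread includes differences between the runs. Depth limits the precision of genes with few reads.

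The gene lists, their members and the rule for named genes were chosen with earlier results of these data known. Named were, per direction, the 12 called genes with the largest change whose mean reached 50 and whose unadjusted p was under 0.05 in each run, the 4 smallest p of each list, all subregion markers, and the 6 smallest p per direction of each difference. Tests were run on simulated counts with planted changes. The age test recovered 86% of 1.5-fold and 100% of 2-fold changes. CA1 against the DG recovered 28% and 98%, and the difference between the runs 3% and 47%, so these tests miss many small differences. CA1 against CA3 was not simulated, and the simulated counts held no shift in mitochondrial share. Promoter windows came from RefSeq GRCr8. Alternatives are given in the closing section, and 1 of them, without the 3 farthest libraries and with the run as a term, was chosen after seeing the data. Some named genes are not reported here.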

Additional observations from a re-analysis of the deposited data

Results flagged for a closer look

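In the following genes the age change in CA1 differed between the 2 runs of animal numbers by limma's interaction test, each value being the second run's log2 change minus the first run's. More positive in the second run were 4 mitochondrially encoded genes, Mt-atp8 (2.11), Mt-nd2 (1.43), Mt-nd3 (1.19) and Mt-nd4 (0.98), as well as Timm10 (1.31), an import factor of mitochondria, and the ribosomal Rps27 (0.86). Tsc22d3 (0.94), Errfi1 (0.58), an inhibitor of the EGF receptor, Rarres2 (0.72), Ppil2 (0.72) and the unnamed model AABR07007121.1 (1.83) also differed. More negative in the second run were LOC688655 (-1.48), RGD1565131 (-1.35), Cox14 (-1.26), Znrf1 (-1.03), Camk2n2 (-0.97), Snu13 (-0.94), Sec61a2 (-0.59) and Slc32a1 (-0.57), the vesicular transporter of GABA. Median normalized counts of Timm10 were 510 and 408 at 5 and 12 months in the first run and 442 and 900 in the second. For Cox14 they were 55.5 and 91.6 in the first run and 222 and 125 in the second, and for Snu13 221 and 209, then 309 and 155.

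In a second set of genes the age change differed between CA1 and the DG of the same rats, given as the CA1 log2 change minus that of the DG. The difference was positive for RGD1565131 (1.21), Svbp (0.65), Tmem223 (0.47), LOC300249 (0.46), Tyw3 (0.41), Sdhc (0.34) and Cox19 (0.29). It was negative for LOC100911313 (-1.40), Caln1 (-0.81), Fosl2 (-0.73), Ccdc6 (-0.69), AABR07021547.1 (-0.67), Trim44 (-0.62), Igf1r (-0.58) and Setd7 (-0.47).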

How the results depend on the processing

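With the mitochondrial share as a term 727 genes were called in place of 3700 (343 higher, 384 lower), and in the first run alone 468 (246 higher, 222 lower). Rescaling to the total without mitochondrially encoded genes gave 3011 higher and 1090 lower. Leaving out 1 rat gave between 2860 and 4266 called genes, 1367 to 2104 higher and 1493 to 2162 lower. The other settings kept each of these 3 counts within 1.5 times its value. For the difference between CA1 and CA3, 4 genes were called without the rat as a block, 31 with the run as a term, 2 with a pseudocount of 5 and 1 with a minimum of 50 in place of 10, against 0. For CA1 against the DG the numbers were 8 without the block, 264 with the run as a term and 165 with the higher minimum, against 87.

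The number called in a list moved by over 1.5 times under several settings, of which examples follow. Array weights gave 6 activity-induced factors in place of 10 and 7 cholesterol genes in place of 4. The total without mitochondrially encoded genes gave 3 calcium channel genes in place of 5, 5 GABA-A genes in place of 3, 8 homeostatic and 8 activated microglia genes in place of 5 each, and 9 chaperone genes in place of 5. DESeq2 called 11 interferon-induced genes in place of 6. The run as a term gave 9 chaperone genes, the second run alone 9 cholesterol genes and 6 activity-induced factors, CA3 and DG markers as a term 8 homeostatic microglia genes, and leaving out the 3 farthest libraries 5 CA1 markers in place of 3. Wfs1, Fibcd1 and Olig1 were not called under that rescaled total or quantile normalization (adjusted p between 0.0645 and 0.0931).

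Of 213 called genes that the rule named, 213 stayed called in the same direction under pseudocounts of 0.5 and 5, with the run as a term and with CA3 and DG markers as a term, 210 with edgeR, 211 with DESeq2, 61 with the mitochondrial share as a term, 44 in the first run alone and 192 in the second, and 186 under any 1 rat left out. Over all genes that the rule named, called or not, the direction reversed in the first run alone for Slc32a1 (0.0126), Errfi1 (-0.0309), Mt-atp8 (-0.0928) and Cox14 (0.55), in the second run alone for Ppil2 (0.30), and with the mitochondrial share as a term for Hsd11b1 (-0.0107), Tsc22d3 (-0.29) and Mt-atp8 (-0.0734). The cause was not tested, and Mt-atp8 is itself part of the mitochondrial share. The mitochondrial share and age moved together in the second run, so a call lost with that term does not show that the gene did not change. Low genes such as Osmr rest on few reads.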
